A study of Mus musculus with 32 samples.

Results

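The mitochondrial ribosomal protein genes are the nuclear genes named Mrpl (large subunit) and Mrps (small subunit). They were taken as every gene of the deposited counts whose symbol begins with Mrpl or Mrps and a number and whose mean over the 32 libraries reached 1 CPM (counts scaled to a fixed total of counts in genes). All 77 such genes of the 24062 in the counts passed that limit, and none lay below it. The gene nearest to the limit was Mrps11, at a mean of 3.17 CPM. Of the 77, 30 encode large subunit proteins with a bacterial counterpart and 20 encode large subunit proteins found only in mitochondria. Another 16 encode small subunit proteins with a bacterial counterpart and 10 encode mitochondria-specific small subunit proteins. Mrps36 was assigned to neither subunit, because its protein is now counted with the ketoglutarate dehydrogenase complex of the citric acid cycle.

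Mitochondrial ribosomes translate the few respiratory chain subunits that are encoded in mitochondrial DNA. Their RNA is made inside the organelle, whereas all of their proteins are made on cytosolic ribosomes and imported. Neurons depend heavily on oxidative phosphorylation, for which these ribosomes supply the mitochondrially encoded part.

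The mice carried the transgene Tg(S100a10-EGFP/Rpl10a)ES691Htz, in which regulatory elements of S100a10 drive a green fluorescent ribosomal protein L10a. Immunoprecipitation of the tagged cytosolic ribosomes (TRAP, translating ribosome affinity purification) isolates the mRNAs bound to ribosomes in cells in which those elements are active. The labels name these cells Layer5a S100a10 neurons, and the input is the RNA of the whole cortex. Gh mice were group housed and given vehicle. Sh mice were single housed from weaning and given vehicle. Sh + Flx mice were single housed and drank fluoxetine, a selective serotonin reuptake inhibitor, at 0.167 g/L for 21 days. Sh + Flx anxious mice had the same housing and drug but behaviour labelled as anxious. The study divided the fluoxetine mice by an open-field test, and Sh + Flx mice were those that did not show anxiety. It describes no such division of Sh mice, so each fluoxetine group differs from Sh in drug and in this selection. The parts of drug and selection cannot be told apart here. The mice were male, and each group had 4 TRAP and 4 input libraries, each from cortices pooled from 3 mice. Gh TRAP 2 and 3 differed by little more than sampling noise (mean chi-square per gene 1.13, against 2.17 to 407 for the other 47 pairs of replicates), so they were summed and counted as 1 sample. This left 3 Gh TRAP samples, and 15 TRAP samples in all. The next closest pair was Sh TRAP 1 and 4, at 2.17, before 5.29 for the pair after it. In 7 of the 8 groups of libraries, replicates 1 and 4 and replicates 2 and 3 were the closest pairs. The study describes 4 biological replicates per condition, and whether these pairs come from separate pools was not tested.

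Depth, as the sum of counts over genes, lay between 9776244 and 64788703 for TRAP and between 19265435 and 34515281 for input. S100a10 was at 41.5 to 73.0 CPM in 14 TRAP libraries and at 5.45 to 10.3 CPM in input. The other 2 TRAP libraries, Sh TRAP 2 and Sh TRAP 3, stood apart. S100a10 was at 20.4 and 11.2 CPM in them, and Malat1, a nuclear RNA, at 25400 and 40710 CPM, against 3106 to 8117 CPM in the other TRAP libraries and 25765 to 45584 CPM in input. Results against Sh in TRAP are given with and without them. The values without them rest on Sh TRAP 1 and 4 alone, the close pair named above, and were also computed with that pair summed as 1 sample, in a fit chosen after the data were seen. S100a10 with 5 further layer 5a markers (Etv1, Deptor, Rbp4, Tox and Fezf2) summed to 385 to 706 CPM in TRAP and 554 to 648 CPM in input, ranges that overlap. The summed level of 6 meningeal fibroblast markers (Col1a1, Col1a2, Col3a1, Dcn, Lum and Igf2) was 968 to 3064 CPM in TRAP libraries and 44.6 to 109 CPM in input, and that of 6 endothelial markers 68.7 to 116 and 5.11 to 10.1 CPM. No gene of these lists was at 0 throughout. In bulk samples like these, fewer cells of a type and less RNA per cell cannot be told apart.

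The promoters of these genes are shown for 3 members as examples. Mrpl52 and Mrpl51 were higher in TRAP than in input, and Mrps33 was called in TRAP in both comparisons of a fluoxetine group with Sh. Each line gives up to 150 bases that end just before the annotated start (RefSeq, GRCm38.p6), cut where an annotated exon of another gene begins. Capitals mark a match to CCGGAAG, a core bound by ETS family factors such as GABPA, on either strand.
Mrpl52, chr14:54426759-54426908, plus strand: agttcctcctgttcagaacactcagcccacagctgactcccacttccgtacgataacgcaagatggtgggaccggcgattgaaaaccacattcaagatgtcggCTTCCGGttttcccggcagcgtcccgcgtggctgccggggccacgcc
Mrpl51, chr6:125192101-125192199, plus strand: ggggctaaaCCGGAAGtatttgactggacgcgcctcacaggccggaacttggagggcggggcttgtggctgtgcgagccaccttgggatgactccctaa
Mrps33, chr6:39810937-39811086, minus strand: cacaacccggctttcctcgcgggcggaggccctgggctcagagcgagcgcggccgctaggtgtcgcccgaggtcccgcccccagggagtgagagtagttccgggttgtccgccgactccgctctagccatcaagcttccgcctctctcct

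Windows from 250 bases before to 50 bases after the start were given for 68 of the 77 members and for 27025 genes in all. Unlike the members, the 27025 were not limited to protein-coding genes or to genes expressed here. On either strand, CCGGAAG was found for 25 of the 68 members (36.8%) and for 9.93% of all genes. TATAAA, the core of the TATA box, was found for 5 members (7.35%) and for 15.7% of all genes. Mrps33 has a CCGGAAG match in its window, but none in the stretch shown. The 2 motifs cannot overlap each other, and a match is a description of the letters only. Cores bound by the factors NRF1 and YY1 were also searched at first, and their counts are not given here. Both were found in a larger share of members than of all genes, so CCGGAAG was not alone in this. The genes are also often arranged head to head: 20 of the 77 (26.0%) start within 500 bases of a protein-coding gene on the opposite strand that runs the other way, against 6.27% of 21774 protein-coding genes. These 21774 were not limited to genes expressed here. Mrps11 and Mrpl46, a member of each subunit, start 42 bases apart, and Mrpl36 starts 21 bases from Ndufs6, a subunit of respiratory complex I.

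Levels differed widely among the members. Between genes they are compared here as CPM divided by exonic length in kilobases, with library sizes scaled by TMM (trimmed mean of M values), which also scales all later CPM of single libraries. In Gh TRAP the highest was Mrps33, a mitochondria-specific small subunit protein, at 113 ± 6.29 (SD, n = 3), with samples from 108 to 120. Next came Mrpl42, a mitochondria-specific large subunit protein, at 76.6 ± 6.08. Mrpl30 and Mrps21, which have bacterial counterparts, followed at 63.7 ± 7.94 and 62.9 ± 6.32. The samples of Mrps33 did not overlap those of Mrpl42, whereas those of Mrpl42, Mrpl30 and Mrps21 overlapped each with the next. The 3 lowest were Mrpl48 at 4.20 ± 0.128, Mrps25 at 3.36 ± 0.224 and Mrps11 at 2.41 ± 1.20, and the samples of Mrps25 and Mrps11 overlapped. In Gh input, Mrps33 (81.3 ± 12.6, n = 4), Mrpl42 (55.6 ± 6.37) and Mrpl30 (54.2 ± 2.36) were again the 3 highest. The medians of the 4 roles in Gh TRAP lay between 11.1 and 14.4, and that of the role that holds Mrps33 was 11.1.

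The 3 paralogues of bacterial protein S18 take up separate positions in the mitochondrial ribosome, Mrps18a in the large subunit and Mrps18b and Mrps18c in the small subunit. Their levels per kilobase in Gh TRAP were 12.6 ± 2.71 for Mrps18a, 7.13 ± 3.42 for Mrps18b and 42.7 ± 6.86 for Mrps18c. Mrps18c was above both others in every sample, and the ranges of Mrps18a and Mrps18b overlapped. Exonic length counts all annotated exons, so a gene with a long alternative exon, such as Mrpl17 with 6712 bases, has a lower value per kilobase. Strand was not marked in these libraries, and 58.4% of the exonic bases of Mrps25 also belong to Nr2c2 on the opposite strand. How reads in such bases were counted is not stated. The value of Mrps25 may therefore include reads of that gene or miss reads of its own. Mrps36 has annotated pseudogenes in RefSeq, and its counts are uncertain for that reason. Pseudogenes of the other members were not examined.

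The first comparison asked how TRAP and input differ in group-housed mice. Among the members called, Mrpl14, Mrpl52, Mrps21, Mrpl39, Mrpl21 and Mrpl13 were 1.52 to 1.90 times as high in TRAP as in input, whereas Mrpl35 was at 0.582 of its input level. With edgeR's quasi-likelihood test (adjusted p under 0.05 over all genes tested), 12 of 77 members were higher in TRAP, 4 were lower and 61 did not pass. Among all 17015 genes tested, 20.3% were called higher and 21.9% lower (42.2% in either direction), and the members' shares were 15.6% and 5.19%. The median log2 fold change was 0.21 over the members and -0.06 over all genes, and 57 members had a fold change above 1. With replicates 1 and 4, and 2 and 3, summed in every group, 3 were called higher and 3 lower.

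Mrpl52, a mitochondria-specific large subunit protein, was at 13.96, 13.97 and 14.9 CPM in the Gh TRAP samples and at 7.135, 7.96, 7.93 and 7.81 CPM in input. Every TRAP sample was above every input sample (log2 fold change 0.89 ± 0.20, SE, adjusted p = 0.000633). Mrps21, the counterpart of bacterial S21, was at 31.7, 29.1 and 35.5 CPM in TRAP and 15.1, 21.0, 21.6 and 17.6 CPM in input, again without overlap (0.77 ± 0.20, adjusted p = 0.00197). Mrpl39, mitochondria-specific and related in sequence to threonyl-tRNA synthetase, was at 46.3, 39.4 and 33.6 CPM against 22.5, 27.6, 26.3 and 21.9 CPM (0.69 ± 0.15, adjusted p = 0.000387). Mrpl13, Mrpl51 and Mrps33 were also higher without overlap, with log2 fold changes of 0.61, 0.58 and 0.47. These 6 genes come from both subunits and from bacterial and mitochondria-specific roles alike. Mrpl14, the counterpart of bacterial L14, had the largest fold change of those called higher, at 8.52, 7.61 and 10.35 CPM against 4.57, 4.81, 4.77 and 4.495 CPM (0.92 ± 0.32, adjusted p = 0.0206).

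Mrpl35, a large subunit protein with a bacterial counterpart, went the other way. It was at 28.8, 31.9 and 30.8 CPM in Gh TRAP and at 47.1, 52.15, 57.8 and 53.1 CPM in input, with no overlap (log2 fold change -0.78 ± 0.11, SE, adjusted p = 4.29e-07). Mrpl57, Mrpl17 and Mrps2 were lower as well, with log2 fold changes of -0.53, -0.46 and -0.40 and no overlap between samples. Mrpl35 was the member with the smallest p in this comparison, and it stayed within 27.3 to 38.1 CPM in all TRAP samples of all groups, against 47.1 to 57.8 CPM in input.

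**Figure D1:**
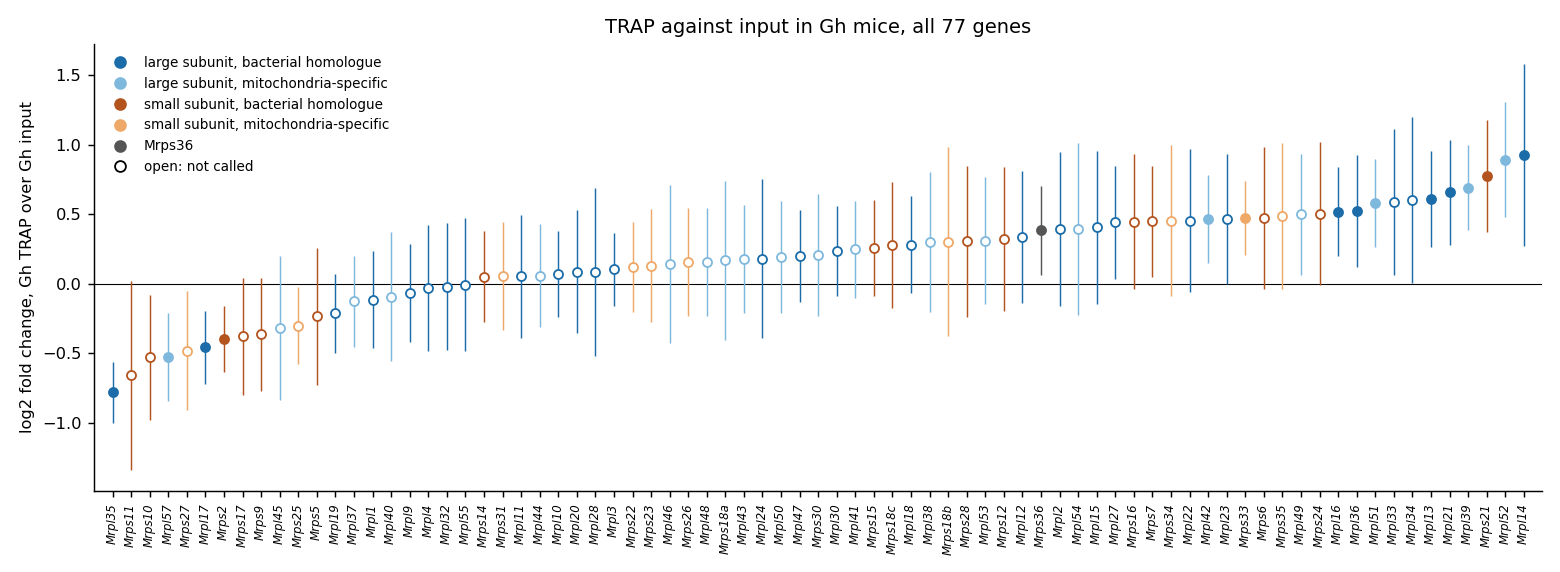
Log2 fold change (vertical axis) of Gh TRAP over Gh input for each of the 77 genes, ordered by value. Points are edgeR estimates with 95% intervals, coloured by role and filled where the adjusted p was under 0.05. The 4 filled points below 0 are Mrpl35, Mrpl57, Mrpl17 and Mrps2, and the 12 above 0 come from all 4 roles and Mrps36.

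The members were short, with a median exonic length of 1129 bases against 2997 bases for all genes tested. The 4 called lower had a median of 3008 bases (2079 to 6712), near that of all genes, and the 12 called higher one of 844 bases (412 to 2770). Across the 77 members, exonic length and the log2 fold change of TRAP over input had a Pearson r of -0.54 (length on a log scale) and a Spearman rho of -0.55. Across the 16015 genes tested that have a length, the values were -0.04 and -0.11. The points share the same 7 samples, so these correlations are descriptions, and the part of length in the differences was not tested.

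**Figure D2:**
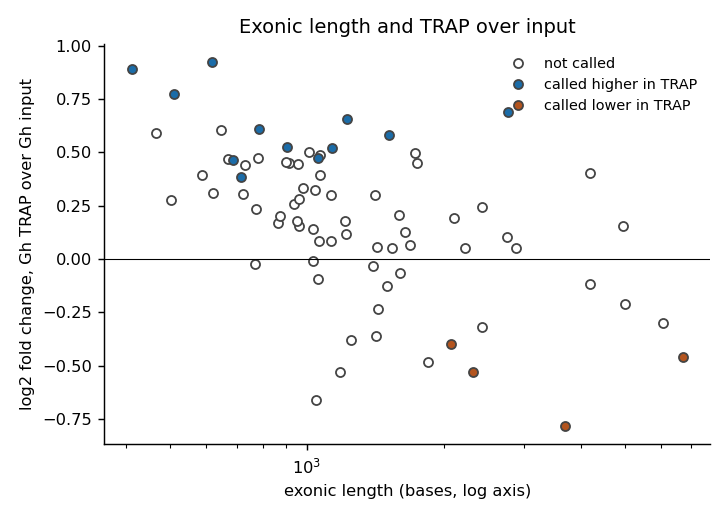
Exonic length in bases (horizontal log axis) against the log2 fold change of Gh TRAP over Gh input, one point per gene. The 4 genes called lower span 2079 to 6712 bases, and the 12 called higher span 412 to 2770 bases.

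Averaged over the 4 groups, 42 members were higher in TRAP and 12 lower, against 32.3% and 37.4% of all genes (69.7% in either direction). The 12 lower ones held 5 of the 16 bacterial-type small subunit genes and none of the 10 mitochondria-specific small subunit genes. Mrps5 was among the 5, at a log2 fold change of -0.73 ± 0.11 (SE). These sets are small beside the 37.4% of all genes called lower, and the split between roles was not tested. The member with the smallest p was again Mrpl35 (-0.74 ± 0.05, adjusted p = 1.39e-14), followed by Mrpl52 (1.03 ± 0.10) and Mrpl39 (0.73 ± 0.07). Leaving out Sh TRAP 2 and 3, 57 were higher and 9 lower (36.8% and 37.4% of all genes). In Gh alone, that fit, which shares its estimate of the spread with the other groups, called 29 higher and 5 lower in place of 12 and 4, while 26.5% and 22.8% of all genes were called. The 16 members called with all libraries were among those 34. For Gh in the same fit, 67 of 78 cytosolic ribosomal protein genes were higher and 1 lower (median 0.57). Of 36 respiratory complex I subunit genes, 20 were higher and 2 lower (median 0.37). All 6 neuron markers were lower (median -0.56). The part of these lists in the members' values was not tested.

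The members' summed level shows how far 2 libraries set the values of the Sh group. It was 1625, 1714 and 1749 CPM in Gh TRAP, 1636, 1128, 980 and 1646 CPM in Sh TRAP, 1601 to 1953 CPM in Sh + Flx TRAP and 1709 to 1949 CPM in Sh + Flx anxious TRAP. All 16 input libraries lay between 1304 and 1630 CPM. Sh TRAP 1 and 4 were thus within or near the range of Gh TRAP, and Sh TRAP 2 and 3 were below every input library. The ratio of the mean TRAP sum to the mean input sum was 1.13 in Gh, 0.976 in Sh, 1.26 in Sh + Flx and 1.32 in Sh + Flx anxious, and 1.19 in Sh without the 2 libraries. The number of members whose mean was above input was 57 in Gh, 36 in Sh, 58 in Sh + Flx and 61 in Sh + Flx anxious, and again 57 in Sh without the 2 libraries.

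**Figure D3:**
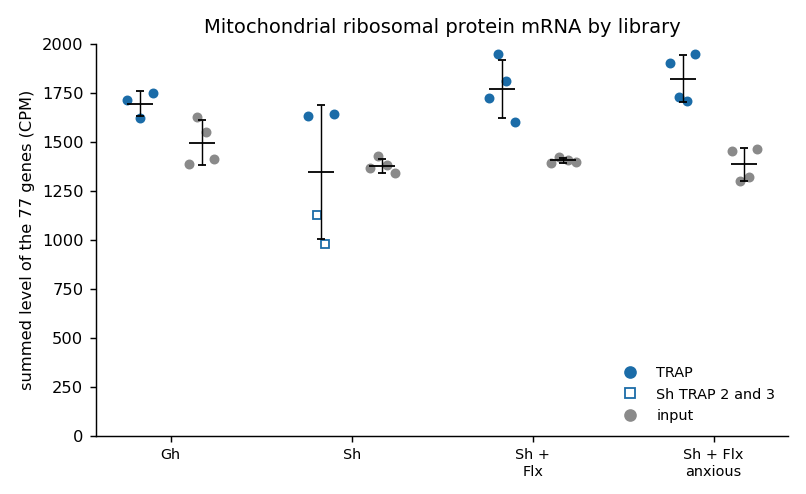
Summed level of the 77 genes in CPM (vertical axis) in each library, by group, with TRAP in blue and input in grey. Black bars are the mean and SD of all samples of a group, and open squares are Sh TRAP 2 and 3, at 1128 and 980 CPM, below the lowest input library at 1304 CPM.

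The second comparison asked what single housing changed in TRAP. No member was called between Sh and Gh, as was 0% of the 16754 genes tested, although 22 members had an unadjusted p under 0.05. DESeq2 called 1 member, Mrps33, lower. The median log2 fold change was -0.32 over the members and 0.02 over all genes, with 67 of 77 members below 0. With Sh TRAP 2 and 3 left out the median was -0.06 and 44 members lay below 0, and no member was called (0.0353% of all genes).

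Mrps33 had the smallest p. It was at 126.5, 117 and 113.7 CPM in Gh TRAP and at 86.6, 68.0, 70.3 and 89.0 CPM in Sh TRAP, so that the groups did not overlap and Sh TRAP 1 and 4 were low as well. Its log2 fold change was -0.60 ± 0.15 (SE, adjusted p = 0.206), and -0.46 without the 2 libraries (95% interval -0.75 to -0.17, adjusted p = 0.192). Mrpl12, which binds translation factors to the ribosome at its stalk, was at 9.74, 16.03 and 20.05 CPM in Gh and 9.79, 7.10, 4.09 and 9.80 CPM in Sh (-1.003 ± 0.28, adjusted p = 0.206). Mrps15, the counterpart of bacterial S15, differed by -0.72 ± 0.21 (adjusted p = 0.206).

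The third comparison was Sh + Flx against Sh, that is fluoxetine mice selected as not anxious against vehicle mice, all single housed. In TRAP, 3 members were higher in Sh + Flx than in Sh and none was lower, against 2.65% of all genes called higher and 3.81% lower. The 3 are 3.90% of the members, against 6.46% called in either direction among all genes. The median log2 fold change was 0.35 over the members, with 70 of 77 above 0, and -0.02 over all genes. The count was 13 with DESeq2, 8 with Gh TRAP 2 and 3 kept separate, 1 to 14 when 1 library was left out, and 0 with replicates 1 and 4, and 2 and 3, summed. Without Sh TRAP 2 and 3 the median fell to 0.08, with 49 members above 0 (all genes 0.02), and 1 member was called, Mrps33, against 2.08% of all genes. In the same contrast with all libraries, 4 of 5 nuclear RNAs (median -1.82) and 1 of 6 oligodendrocyte markers (median -0.68) were called lower. There 1 of 6 meningeal fibroblast markers was called higher. Without Sh TRAP 2 and 3, 1 nuclear RNA (median -0.64) and 1 meningeal fibroblast marker were called lower and 1 layer 5a marker higher. The medians of the neuron and astrocyte markers were then 0.30 and -0.345, with none called. The part of these lists in the members' differences was not tested.

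Mrps33 was at 125.8, 152.7, 122 and 114 CPM in Sh + Flx TRAP, above all 4 Sh samples, and 1.63 times as high on average (log2 fold change 0.70 ± 0.14, SE, adjusted p = 0.0124). Without Sh TRAP 2 and 3 the log2 fold change was 0.55 (95% interval 0.27 to 0.83, adjusted p = 0.0358). With Sh TRAP 1 and 4 summed as well, the value was 0.55 (0.17 to 0.94) and was not called (adjusted p = 0.446), and with all replicate pairs summed it was 0.66 (adjusted p = 0.447). It was called in 16 of 18 fits of this comparison, with log2 fold changes from 0.55 to 0.76.

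Mrpl16, a core large subunit protein with a bacterial counterpart, was at 56.2, 68.4, 47.9 and 60.6 CPM in Sh + Flx TRAP and 45.9, 28.2, 30.0 and 44.6 CPM in Sh TRAP (0.64 ± 0.18, adjusted p = 0.0417). Mrpl12 was at 12.3, 17.9, 12.9 and 14.6 CPM, above all Sh samples (0.90 ± 0.26, adjusted p = 0.0489). Sh TRAP 2 and 3 were the lowest samples for both genes. Without them the log2 fold changes were 0.37 and 0.56 and neither was called (adjusted p = 0.235 and 0.234).

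In input the same contrast called no member (1.82% of all genes were called higher and 0.797% lower, 2.62% in all), and the median over the members was 0.02. Only 1 member had an unadjusted p under 0.05, Mrps2, at 0.20 ± 0.08, followed by Mrpl17 (0.14) and Mrps31 (0.21). The change in TRAP was therefore set against that in input in a fit of both fractions. Mrps33 was the 1 member called in this test of the difference (0.68 ± 0.17, SE, adjusted p = 0.0333, against 0.864% of all genes called higher, 2.11% lower and 2.97% in either direction), and the median over the members was 0.38. After leaving out Sh TRAP 2 and 3 the median was 0.11, its value was 0.55 with an adjusted p of 0.0932, and no member was called (1.10% of all genes). The next smallest p were those of Mrpl44, a mitochondria-specific large subunit protein related to a ribonuclease (0.75 ± 0.24, adjusted p = 0.0719), and Mrpl16 (0.64 ± 0.21, adjusted p = 0.0725). The same test for Sh against Gh called no member (0.0176% of all genes were called higher and 0.00588% lower, 0.0235% in all), with a median of -0.17, or 0.04 without the 2 libraries (0.363% of all genes). Mrps15 had its smallest p (-0.74 ± 0.23, adjusted p = 0.231), before Mrpl9 (-0.54 ± 0.24) and Mrps33 (-0.40 ± 0.18).

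The fourth comparison was Sh + Flx anxious against Sh. In TRAP, 8 members were higher and none lower, which is 10.4% of the members, against 4.35% of all genes called higher and 6.14% lower (10.5% in either direction). Among them 5 were large subunit proteins with a bacterial counterpart (Mrpl30, Mrpl12, Mrpl17, Mrpl34 and Mrpl36), and the others were Mrps21, Mrps33 and Mrps36. The median log2 fold change was 0.44 over the members and -0.01 over all genes. With Sh TRAP 2 and 3 left out it was 0.11, and Mrps33 and Mrps36 were the 2 members called (4.53% of all genes). The count was 16 with DESeq2, 13 with Gh TRAP 2 and 3 kept separate, 2 to 14 when 1 library was left out, and 0 with the replicate pairs summed. Marker lists moved in the same contrast: 3 of 6 neuron and 2 of 6 meningeal fibroblast markers were called higher, and 2 of 6 oligodendrocyte markers (median -0.77) and 5 of 5 nuclear RNAs (median -2.04) lower. In the fit that left out Sh TRAP 2 and 3, 3 of 6 neuron markers were still called higher (median 0.54). Of 6 meningeal fibroblast markers, 2 were called higher and 1 lower. The oligodendrocyte and nuclear RNA medians were -0.53 and -0.77, with 1 and 3 called lower. The 6 layer 5a markers had a median of 0.45, with 1 called higher. The part of these lists in the members' differences was not tested.

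Mrps36 was at 43.4, 43.1, 38.4 and 52.2 CPM in Sh + Flx anxious TRAP and at 28.3, 19.9, 16.5 and 28.6 CPM in Sh TRAP, 1.90 times as high on average (log2 fold change 0.93 ± 0.19, SE, adjusted p = 0.00867). Every anxious sample was above every Sh sample, and the log2 fold change was 0.65 without Sh TRAP 2 and 3 (95% interval 0.28 to 1.02, adjusted p = 0.0415). In Gh TRAP it was at 34.3, 31.2 and 35.5 CPM, and in Sh + Flx TRAP at 27.3, 45.6, 33.3 and 32.7 CPM. It was called in 16 of 18 fits of this contrast, and was not called with Sh TRAP 1 and 4 summed in place of 4 Sh libraries (0.65, adjusted p = 0.374) or with all replicate pairs summed (0.94, adjusted p = 0.328).

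Mrps33 was at 122.7, 117.8, 103.1 and 141.7 CPM in the anxious group (0.63 ± 0.14, adjusted p = 0.0112, and 0.47 with adjusted p = 0.0455 without the 2 libraries). With Sh TRAP 1 and 4 then summed, its adjusted p was 0.389. Mrps21 was at 38.9, 34.2, 36.2 and 38.6 CPM, against 25.1, 15.9, 12.4 and 27.2 CPM in Sh (0.88 ± 0.22, adjusted p = 0.0206). Mrpl30 was at 57.6, 54.2, 59.1 and 69.2 CPM, against 44.5, 26.3, 26.0 and 46.4 CPM (0.75 ± 0.19, adjusted p = 0.0211). Mrpl12 and Mrpl17 did not overlap with Sh either, with log2 fold changes of 0.99 ± 0.26 and 0.60 ± 0.16. In each of these genes Sh TRAP 2 and 3 were the lowest of the 4 Sh samples. Without them Mrps21, Mrpl30, Mrpl12 and Mrpl17 were at 0.51, 0.41, 0.65 and 0.37 and were not called (adjusted p from 0.118 to 0.144).

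**Figure D4:**
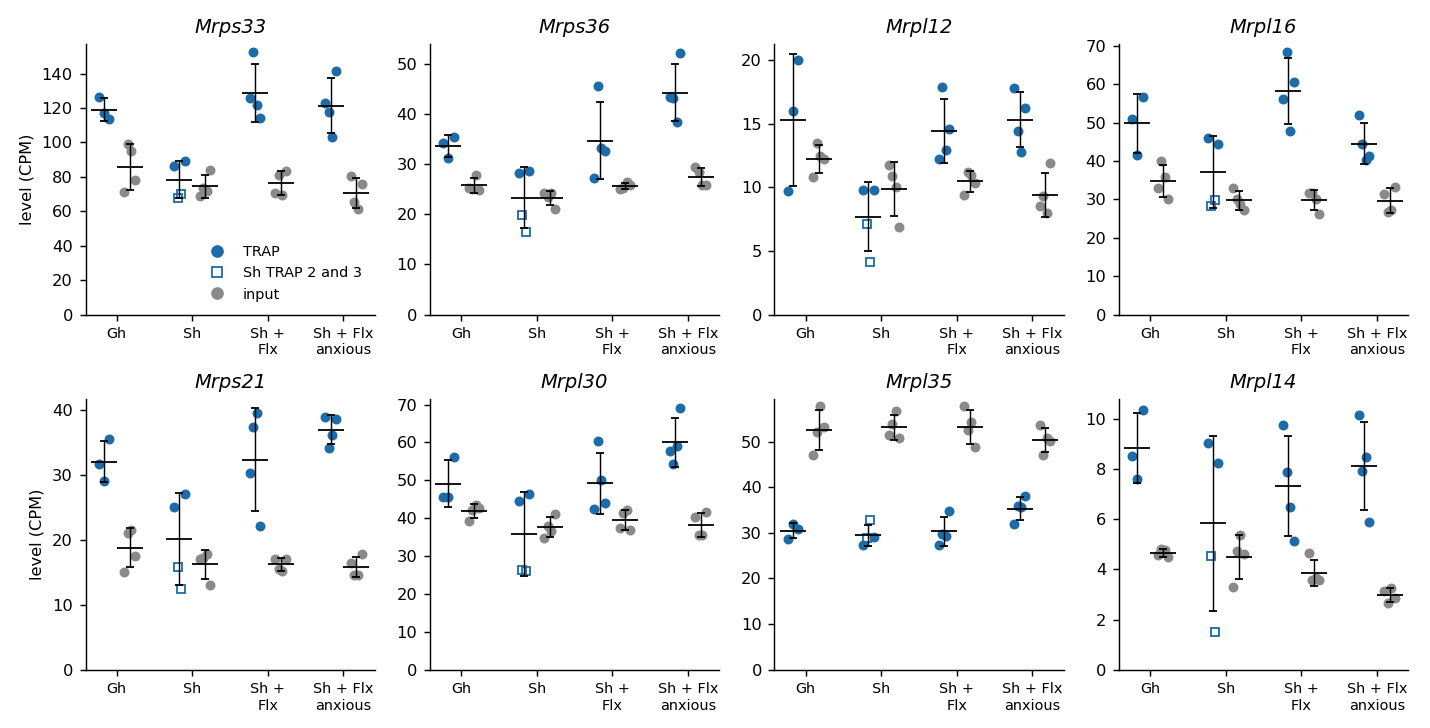
Level in CPM (vertical axes, from 0) of 8 members in each library, by group, with TRAP in blue, input in grey and bars for the mean and SD. For Mrps33 all 4 Sh TRAP samples, from 68.0 to 89.0 CPM, lie below all other TRAP samples, whereas for Mrpl30, Mrps21 and Mrpl14 Sh TRAP 2 and 3 (open squares) lie well below Sh TRAP 1 and 4.

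No member was called between either fluoxetine group and Gh in TRAP. For Sh + Flx against Gh, 1 of all genes was called (0.00597%), and the median over the members was 0.03. Mrps25, with 58.4% of its exonic bases also in Nr2c2, had the smallest p (0.33 ± 0.16, adjusted p = 0.812), followed by Mrps6 and Mrps5. For Sh + Flx anxious against Gh, 0.0716% of all genes were called, and the median was 0.09. Mrps2, Mrps25 and Mrps36 had the smallest p, with log2 fold changes of 0.34, 0.33 and 0.40. Between anxious and other fluoxetine mice no member was called in TRAP (0% of all genes), and 1 member had an unadjusted p under 0.05, Mrpl16. It was lower in the anxious group by 0.38 on the log2 scale (95% interval -0.75 to -0.01), and Mrps36 was higher by 0.36 (-0.03 to 0.75). DESeq2 called no member in any of these 3 comparisons. The comparisons of a fluoxetine group with Sh and with Gh share their fluoxetine samples, and those with Sh share the Sh samples.

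**Figure D5:**
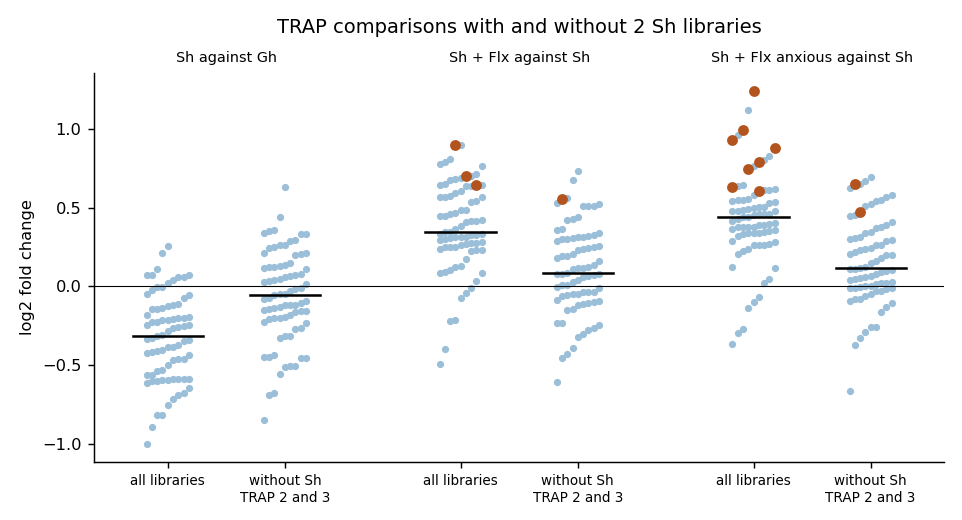
Log2 fold changes in TRAP of the 77 genes (points, vertical axis) in 3 comparisons, with all libraries and without Sh TRAP 2 and 3. Black lines are medians, at -0.32 and -0.06 for Sh against Gh, 0.35 and 0.08 for Sh + Flx against Sh, and 0.44 and 0.11 for Sh + Flx anxious against Sh, and larger brown points are called genes.

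In whole cortex, 3 members were called between a single-housed group and Gh, all for Sh + Flx anxious. The median log2 fold change in input was -0.13 for Sh, -0.12 for Sh + Flx and -0.10 for Sh + Flx anxious, each against Gh, while that of all genes was -0.01 in each. These 3 comparisons share the Gh input samples, of which 2 had the highest sums of the members of all input libraries. The members below 0 numbered 68, 60 and 64 of 77. No member was called for Sh (of all genes 0.0446% were higher and 0.0382% lower, 0.0829% in all) or for Sh + Flx (3.1% and 2.21%, 5.31% in all), with 4 members at an unadjusted p under 0.05 in each, and DESeq2 called none. For Sh, Mrps23 had the smallest p (-0.43 ± 0.14, SE, adjusted p = 0.249), before Mrps25 (-0.25) and Mrpl55 (-0.28). For Sh + Flx it was Mrpl33 (-0.37 ± 0.14, adjusted p = 0.128), before Mrpl13 (-0.32) and Mrpl53 (-0.33).

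For Sh + Flx anxious against Gh, 3 members were lower in input and none higher, against 5.27% and 6.21% of all genes (11.5% in either direction). All 3 belong to the large subunit. Mrpl14 was at 3.14, 2.68, 3.28 and 2.84 CPM in the anxious group and at 4.57, 4.81, 4.77 and 4.495 CPM in Gh, with no overlap (-0.64 ± 0.18, adjusted p = 0.0176). Mrpl54, mitochondria-specific, was at 2.23, 1.82, 2.56 and 3.06 CPM against 4.07, 4.29, 3.76 and 3.75 CPM (-0.71 ± 0.21, adjusted p = 0.0241). Mrpl33, the counterpart of bacterial L33, was at 10.1, 9.002, 9.63 and 9.43 CPM against 10.8, 17.2, 14.4 and 10.1 CPM, ranges that touch (-0.46 ± 0.14, adjusted p = 0.0311). In the same contrast all 6 oligodendrocyte markers (median -0.61) and 30 of 77 cytosolic ribosomal protein genes (median -0.24) were called lower, as were 4 and 21 for Sh + Flx against Gh, and their part in the members' values was not tested. The members' count was 0 without Sh + Flx anxious input 2 or with the replicate pairs summed, 1 without Gh input 2 and 5 without Sh + Flx anxious input 4.

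Mrpl14 was also lower in anxious than in Sh input, where it was at 3.30, 4.73, 5.36 and 4.60 CPM (-0.59 ± 0.18, adjusted p = 0.0444). It was the 1 member called there, against 3.98% of all genes called higher and 2.87% lower (6.86% in all). Mrps36 was at 0.23 ± 0.08 there (adjusted p = 0.109) and Mrpl54 at -0.46 ± 0.21 (adjusted p = 0.236). Mrpl14 was not called with a replicate block (adjusted p = 0.0673), without the filter on low counts or with a term for replicates 2 and 3, or when any of 7 of the 8 libraries was left out. In TRAP the same gene was higher than in input in Gh, and its Sh TRAP samples ranged from 1.52 to 9.04 CPM. Anxious against other fluoxetine mice in input gave no called member (0.051% of all genes were higher and 0.0765% lower, 0.127% in all) and a median of -0.01, with none at an unadjusted p under 0.05 and none called by DESeq2.

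Other genes of mitochondrial translation were described from fixed lists, counted in the same fits and read against the 20.3% of all genes called higher and 21.9% called lower in TRAP against input in Gh. Of 23 mitoribosome assembly factors, 7 were higher in Gh TRAP than in Gh input and 2 were lower. Mterfd2 (now Mterf4), which guides a ribosomal RNA methyltransferase to the mitochondrial ribosome, was at 46.0 ± 4.03 CPM (SD, n = 3) in TRAP and 16.1 ± 1.95 CPM (n = 4) in input (log2 fold change 1.52 ± 0.16, SE, adjusted p = 4.12e-09). Rpusd4, a pseudouridine synthase, and Ddx28, an RNA helicase, were higher by 1.35 and 1.09. Of 21 mitochondrial aminoacyl-tRNA synthetase genes 2 were higher (Iars2 and Lars2) and 2 lower (Wars2 and Nars2). Lars2 was at 8195, 11910 and 10810 CPM in Gh TRAP and at 7218 to 8077 CPM in Gh input. In Gh TRAP, Mrps33, the highest member, was at 113.7 to 126.5 CPM. Why the counts of Lars2 were so high was not tested. Of 15 translation factors 1 was higher (Slirp, 0.46), of 10 genes of mitochondrial DNA maintenance and transcription 2 (Ssbp1 and Tefm), and of 6 mitoribosome proteins with other symbols 1 (Aurkaip1, 0.57). Of 8 regulators of mitochondrial biogenesis, Gabpa, the DNA-binding subunit of an ETS factor, was higher (0.35 ± 0.12, adjusted p = 0.0139), and Ppargc1a, a transcriptional coactivator, was lower (-0.71 ± 0.15, adjusted p = 0.000256).

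None of the 6 lists had a call in Sh against Gh in TRAP, with 1 or 2 genes of each at an unadjusted p under 0.05. In Sh + Flx against Sh TRAP, Gabpa was the 1 gene called on the 6 lists. It was at 98.4, 104.3, 126.5 and 102 CPM in Sh + Flx and at 79.6, 67.3, 52.1 and 86.7 CPM in Sh, without overlap (0.59 ± 0.14, SE, adjusted p = 0.0297), and at 96.7 to 105.7 CPM in Gh TRAP, so that Sh TRAP 1 and 4 were below the Gh samples too. In the fit that left out Sh TRAP 2 and 3 it was at 0.38 and not called (adjusted p = 0.096), while 1 synthetase gene was called higher and 1 lower. In Sh + Flx anxious against Sh TRAP, the higher genes were Gabpa (0.64 ± 0.14, adjusted p = 0.0135), Gadd45gip1, a large subunit protein, Tfam, which packages mitochondrial DNA, and Yars2. The lower ones were Lrpprc, which stabilises mitochondrial mRNAs, Tars2, Polrmt, the mitochondrial RNA polymerase, and Pprc1, a coactivator. Tars2, mitochondrial threonyl-tRNA synthetase, was at 3.24, 2.03, 3.04 and 2.98 CPM in the anxious group and at 8.21, 8.94, 8.99 and 7.61 CPM in Sh, with all 4 Sh samples close together (-1.57 ± 0.25, adjusted p = 0.00283). Lrpprc was at 56.3 and 50.6 CPM in Sh TRAP 1 and 4, near the 53.2 to 61.6 CPM of Gh, and at 101.7 and 136 CPM in Sh TRAP 2 and 3. Without these 2 libraries, Gabpa (0.42, adjusted p = 0.0472) and Tars2 (-1.47, adjusted p = 0.00841) were still called. Gadd45gip1, Tfam, Yars2, Lrpprc, Polrmt and Pprc1 were not, with log2 fold changes of 0.80, 0.34, 0.57, -0.24, -0.95 and -0.36.

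The median log2 fold change of 36 respiratory complex I subunit genes was 0.46 for Sh + Flx and 0.60 for Sh + Flx anxious against Sh in TRAP, with 4 and 10 called higher, against 2.65% and 4.35% of all genes. Without Sh TRAP 2 and 3 the medians were 0.11 and 0.25, with 0 and 2 called higher. That of 78 cytosolic ribosomal protein genes was 0.33 and 0.30, with none called by edgeR and 8 and 6 at an unadjusted p under 0.05. Without the 2 libraries it was -0.12 and -0.16, opposite in sign, with 2 and 1 called lower. In Sh TRAP 2 and 3 both lists were at their lowest of all TRAP libraries. In CPM not scaled by TMM, as for the marker lists, they were at 1276 and 774 CPM summed for complex I and 5651 and 3453 CPM for cytosolic ribosomal proteins. The summed level of 5 nuclear RNAs (Malat1, Meg3, Neat1, Miat and Snhg11) was 33700 and 50070 CPM in the same libraries, against 4203 to 11194 CPM in the other TRAP libraries. Their part in the members' differences beyond leaving out these 2 libraries was not tested.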

How the data were processed

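For each of 32 libraries the authors deposited unnormalised counts by gene, from 75-bp read pairs placed on mm10 by TopHat2 2.0.11 with UCSC gene models. The cDNA came from an Ovation V2 kit without strand marking, and how reads were counted is not stated here. Their tables of group mean FPKM with their own fold changes and p-values were not used. The submitters' processing notes also name Cufflinks 2.2.1, edgeR 3.8.6 and DESeq2.

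The 5 lines that name no gene were left out. Counts were tested with edgeR 4.0.16 (R 4.3.3; TMM, filterByExpr by group, glmQLFit and glmQLFTest), with Benjamini-Hochberg adjustment over all genes kept and a threshold of 0.05, in separate fits of TRAP (15 samples, 16754 genes), input (16 libraries, 15690 genes) and both (31 samples, 17015 genes). All 77 members passed the filter in each. Standard errors and 95% intervals are from these fits and are not adjusted over genes. The study describes 4 biological replicates, but libraries of a group lay in close pairs, so p-values measure the spread between libraries, which may be partly technical. DESeq2 1.42.0, its size factors in edgeR, no filter, a replicate block, a term for replicates 2 and 3, Gh TRAP 2 and 3 kept separate, and left-out libraries were the alternatives. Summing Sh TRAP 1 and 4 after leaving out 2 and 3, and summing replicates 1 and 4, and 2 and 3, in every group, were added after seeing the data. The members and gene lists were chosen with earlier results of these data known. The genes named are, for TRAP against input in Gh and each fluoxetine group against Sh in TRAP, up to 6 called members in each direction with the smallest p and no overlap of samples. For other comparisons they are the 3 members with the smallest p. The highest and lowest per length, Mrps18 paralogues, Mrps36 and the leading genes of the other lists were added by the same rule. Mrpl14 in TRAP against input, Mrpl21, Mrpl34, Mrpl46, Yars2 and single libraries of Gabpa, Lars2, Tars2 and Lrpprc were named after their values were seen.

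Exonic lengths, positions and promoters are from RefSeq GRCm38.p6, the build named mm10, in which all 77 symbols matched.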

Additional observations from a re-analysis of the deposited data

Results flagged for a closer look

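The change of Mrps33 under fluoxetine (Sh + Flx against Sh) differed between TRAP and input by 0.68 on the log2 scale, by the test of the difference given above. It was not called without Sh TRAP 2 and 3 (0.55), or with replicates 1 and 4, and 2 and 3, summed (0.62).

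Single libraries far from the other 3 of their group were looked for with Dixon's test among 35 named members and the members' sum in the groups of 4. Of 252 tests 11 passed, and chance gives about 1 in 20. In input, Mrpl14 was at 4.65 CPM in Sh + Flx input 1 (others 3.58 to 3.67) and Mrpl54 at 4.28 CPM in Sh input 4 (2.98 to 3.13). Sh input 4 also had low Mrps18b (5.37 CPM, others 6.96 to 7.21) and low Mrps21 (13.0 CPM, others 17.1 to 17.9). Mrpl55 was at 10.9 CPM in Sh + Flx anxious input 4 (9.36 to 9.41) and Mrps36 at 27.9 CPM in Gh input 3 (24.9 to 25.2). In TRAP, Mrpl55 was at 3.25 CPM in Sh TRAP 3 (9.41 to 9.97) and at 15.7 CPM in Sh + Flx TRAP 3 (10.6 to 11.4). In Sh + Flx TRAP 1, Mrpl39 was at 35.2 CPM (47.4 to 48.4) and Mrps11 at 4.54 CPM (1.65 to 2.13), and Mrps18b was at 5.95 CPM in Sh + Flx TRAP 4 (7.55 to 7.57).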

How the results depend on the processing

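Counts of members called are given for each alternative that moved them by more than 1.5 times, and the cause was not tested unless stated. DESeq2 called 13 for Sh + Flx against Sh in TRAP, 16 for Sh + Flx anxious against Sh in TRAP, 1 for Sh against Gh in TRAP, 6 for Sh + Flx anxious against Gh in input and 4 for the TRAP minus input change of Sh + Flx against Sh. With Gh TRAP 2 and 3 separate, 8 and 13 were called for the 2 fluoxetine groups against Sh in TRAP. Without Sh TRAP 2 and 3 these counts were 1 and 2, TRAP against input in Gh gave 34, and the TRAP minus input change of Sh + Flx against Sh gave 0. For Sh + Flx anxious against Sh in input, the count was 0 without the filter, with the replicate block and with the term for replicates 2 and 3. With replicates 1 and 4, and 2 and 3, of each group summed (chosen after seeing the data), which leaves fewer samples, the count was 0 in every comparison between groups and in both TRAP minus input changes, 6 for TRAP against input in Gh and 40 for the mean of the 4 groups. Without Sh TRAP 2 and 3 and with Sh TRAP 1 and 4 summed (also chosen then), it was 0 for both fluoxetine groups against Sh in TRAP and for the TRAP minus input changes, and 31 for TRAP against input in Gh. The replicate block moved no other count by more than 1.5 times. Deviations of same-numbered libraries of different groups were only weakly correlated, from -0.17 to 0.16 in TRAP and -0.08 to 0.07 in input. In TRAP the sign was shared by all replicates for Gh with Sh (0.08 to 0.16) and for Sh with Sh + Flx (-0.17 to -0.07). For TRAP with input of the same group and number the correlations were -0.03 to 0.06. The numbers were not taken to pair libraries.

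Leaving out 1 library gave 1 to 14 called members for Sh + Flx against Sh in TRAP (14 and 13 without Sh TRAP 1 and 4, and 1 without Sh TRAP 2 or 3 or Sh + Flx TRAP 1, 2 or 3) and 2 to 14 for Sh + Flx anxious against Sh in TRAP (14 without Sh TRAP 1, 2 and 3 without Sh TRAP 2 and 3, 5 without anxious TRAP 2, and 3 without anxious TRAP 3 or 4). It gave 0 to 1 for Sh + Flx against Gh in input (1 without Gh input 4), 0 to 5 for Sh + Flx anxious against Gh in input, 0 to 1 for Sh + Flx anxious against Sh in input, and 0 to 9 for the TRAP minus input change of Sh + Flx against Sh (9 and 7 without Sh TRAP 4 and 1, 2 without Sh + Flx TRAP 4, and 0 without any one of 10 others). A group left with few libraries is assumed to vary like the rest. Among refits of the named members in their own comparisons, 928 kept their direction and their side of the threshold. A further 92 lost a call, 7 gained one and none turned direction. These members were picked for a small p in those same comparisons, so a kept direction was likely beforehand. The 928 include members that were called in neither fit.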
